A study of Homo sapiens with 6 samples.

Results

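The mRNAs described here are those with a short 5′UTR, the stretch between the cap and the start codon of the main coding sequence (CDS). They were chosen as the transcripts whose 5′UTR has 1 to 33 entries in a deposited table of ribosome occupancy, which gives 1 in-frame value per codon. This took 2663 of 9570 transcripts (27.8%), and the other 6907, with 34 or more 5′UTR values, are called longer here. The data come from ribosome profiling, which sequences the mRNA fragments that ribosomes protect from nuclease (ribosome-protected fragments, RPFs). It was carried out in HEK293 cells, an established human embryonic kidney line, which the sample labels give as treated with Control siRNA. The cells in culture were treated with cycloheximide, which arrests elongating ribosomes, and were then washed and lysed in its presence. There were 3 RPF libraries and 3 total RNA libraries, each pair of the same number taken from 1 lysate, and there was no second condition. Of 9 genes often used to recognise this line, 6 were listed in the efficiency table, and PAX2, LHX1 and EYA1 were not listed.

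Most initiation in human cells begins when a small ribosomal subunit is loaded at the cap and scans the 5′UTR for an AUG codon. The helicase eIF4A helps to open structure in the 5′UTR on this path. mRNAs of ribosomal proteins, histones and many mitochondrial proteins are known for short 5′UTRs. A known element named TISU (translation initiator of short 5′UTR) spans the start codon of some mRNAs whose 5′UTR is so short that little of it can be scanned. In a favourable start codon context as generally described, the base at −3 is a purine and the base at +4 is G, where the A of the AUG is +1.

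The number of values understates the annotated length. Of the short 5′UTRs, 2521 were matched by gene symbol and CDS length to GENCODE 44 on GRCh37 (the assembly also called hg19), and 457 of these had an isoform whose 5′UTR was 10 to 12 nt longer than 3 nt per value. Each of these 3 differences was met by at least 148 transcripts, against a median of 29 at any other difference. With those 10 to 12 nt, 33 values stand for up to 111 nt. In these length-matched transcripts, 1 to 4 values stood for 13 to 24 nt, 9 to 16 values for 37 to 60 nt and 25 to 33 values for 85 to 111 nt. The remaining transcripts match no annotated isoform of that length, so their true 5′UTR is less certain.

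The sequence around the start codon could be read without ambiguity for 2312 of the short 5′UTRs and 6383 of the longer ones. The start sites printed next are 12 bases of the 5′UTR and 15 of the CDS on GRCh37 with the letters of the coding strand, and capitals mark the first 8 bases of the CDS. The first set holds mRNAs with the whole TISU element, spread over the range of lengths, from 2 values in ISOC1 to 21 in PRDX3.
ISOC1 (chr5:128430448-128430474, + strand): gctcgggggaacATGGCGGCtgcggag
BRIX1 (chr5:34915832-34915858, + strand): cggcgaggcaagATGGCGGCaaccaag
LIN7C (chr11:27528285-27528311, − strand): ttaagggagaagATGGCGGCgctaggg
NDUFS4 (chr5:52856481-52856507, + strand): gcctgcagcaagATGGCGGCggtgtca
MRPL50 (chr9:104160860-104160886, − strand): atctcatcgaagATGGCGGCgcgatct
MRPS10 (chr6:42185573-42185599, − strand): gggaccggcaagATGGCGGCgcggaca
PSMB7 (chr9:127177690-127177716, − strand): tttcttgggaagATGGCGGCtgtgtcg
PRDX3 (chr10:120938288-120938314, − strand): agtgcactgaagATGGCGGCtgctgta
The second set shares those 8 bases without the TISU bases before them, and holds 1 of the shortest 5′UTRs (EMC7) and 2 mRNAs of low efficiency.
EMC7 (chr15:34394026-34394052, − strand): agagctgctgtcATGGCGGCcgctctg
MRPL55 (chr1:228295947-228295973, − strand): ctgtaaggaggaATGGCGGCcgtgggc
DBNL (chr7:44084325-44084351, + strand): gcggggcgggccATGGCGGCgaacctg
The last set holds start codons with very many reads (CWF19L1, XPC, PDCD7, LIMD1) or none (CHD4, PSMD8).
CWF19L1 (chr10:102027336-102027362, − strand): ctattcggacagATGGCACAgaaaccg
XPC (chr3:14220054-14220080, − strand): cagacaagcaacATGGCTCGgaaacgc
PDCD7 (chr15:65426105-65426131, − strand): tccgtcgtgaacATGGCCCTgccacca
LIMD1 (chr3:45636360-45636386, + strand): cctgtctgcagcATGGATAAgtatgac
CHD4 (chr12:6715525-6715551, − strand): gagcggaaggggATGGCGTCgggcctg
PSMD8 (chr19:38865230-38865256, + strand): gctccaactgacATGTTCATtaagggc

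Short 5′UTRs were richer in these start sites. The CDS opened with ATGGCGGC in 202 of the 2312 short 5′UTRs (8.74%, 95% Wilson interval 7.65 to 9.96) and in 158 of the 6383 longer ones (2.48%, 2.12 to 2.89), against 4.14% of all 8695 start sites read. These 8 bases were searched at the start codon only, on the coding strand, and they are part of TISU. The share was lower at each step in length, with 18.6% at 1 to 4 values, 17.1% at 5 to 8, 12.1% at 9 to 16, 7.12% at 17 to 24 and 4.14% at 25 to 33 values. The whole TISU element was found at 70 short (3.03%) and 36 longer (0.564%) 5′UTRs, against 1.22% of all start sites. A purine at −3 together with G at +4 was present in 60.8% of 5′UTRs with 1 to 4 values and 67.1% of those with 5 to 8. It was present in 51.0% at 25 to 33 values and in 39.0% over 166 values. Among the length-matched transcripts, an upstream ATG in any frame of the 5′UTR was found in 2 of 21 5′UTRs with 1 to 4 values and in 31.9% of 144 with 25 to 33 values. Over 166 values it was found in 92.9% of 99, and a longer sequence has more places for such a triplet. A match is a description of the letters and not a measured use of the site.

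**Figure D1:**
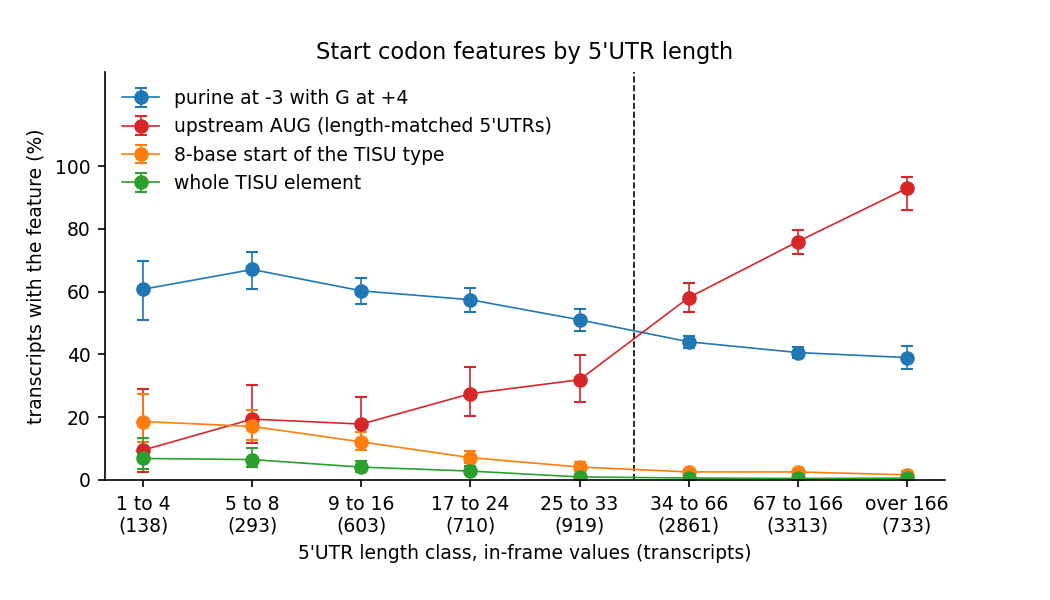
Share of transcripts (%) with each start codon feature in 8 classes of 5′UTR length, given as the number of in-frame values, with the number of transcripts in brackets and bars for 95% Wilson intervals; the dashed line parts short from longer 5′UTRs. The 8-base start was at 18.6% with 1 to 4 values and at 1.66% over 166 values, while an upstream AUG, among length-matched 5′UTRs, was at 9.52% and 92.9% in these classes.

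Translational efficiency (TE) is the authors' ratio of RPFs to total RNA per gene and replicate, so a TE of 1 is relative to library scaling and not a number of ribosomes. Of the short 5′UTRs, 2005 had a TE and 658 were not in that table. These 658 had a median of 335 estimated CDS reads per transcript, against 3140 for those with a TE. The median TE of short 5′UTRs was 0.411, 0.413 and 0.419 in replicates 1, 2 and 3 (0.414 ± 0.00381, SD, n = 3). That of the 4907 longer ones was 0.374, 0.375 and 0.380 (0.376 ± 0.0037). The short group was the higher one in each replicate, by 0.136 ± 0.0017 on the log2(TE + 0.01) scale (SD, n = 3), which is 1.10-fold. The exact sign-flip permutation test over replicates was two-sided and gave p = 0.25, the smallest that 3 replicates allow.

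The difference was small beside the spread among genes, and it depended on which mRNAs were compared. Over 4 bands of CDS length the median of the differences was 0.0337 ± 0.0189. By band it was 0.00923 ± 0.0384 at 25 to 272 codons, 0.0552 ± 0.0206 at 273 to 448 codons, 0.125 ± 0.0368 at 449 to 705 codons and −6.56e-05 ± 0.0241 at 706 to 3696 codons. The CDS of short 5′UTRs had a median of 396 codons and that of longer ones 465. Without ribosomal protein and histone genes the difference was 0.0944 ± 0.00814. It was 0.0465 ± 0.00207 over transcripts that share under 5% of their CDS 30-mers with another gene, and 0.268 ± 0.0138 over those with an isoform of matching 5′UTR length.

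Each gene was set against the median of all 8121 genes with limma (Benjamini-Hochberg FDR of 0.05). Of the short 5′UTRs with a TE, 963 (48.0%) lay above the median and 844 (42.1%) below it, and 198 did not pass the test. Over all genes 44.7% lay above and 44.6% below, so the short group held somewhat more genes above and fewer below. Among longer 5′UTRs the shares were 43.9% and 45.2%.

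Length within the short group did not order TE. The 99 genes with 1 to 4 values had the lowest medians of any short class, 0.335, 0.366 and 0.332 in the 3 replicates (0.344 ± 0.0189). The classes of 5 to 8, 9 to 16, 17 to 24 and 25 to 33 values had medians of 0.432 ± 0.00323, 0.429 ± 0.00553, 0.397 ± 0.00519 and 0.418 ± 0.00594. On the log2 scale the class of 1 to 4 values lay below the other short 5′UTRs by −0.31, −0.18 and −0.34 (mean −0.28 ± 0.0839, exact sign-flip p = 0.25). Over the 2005 genes the Spearman coefficient between 5′UTR values and TE was −0.00716, and that between CDS codons and TE was −0.29. These genes share the same libraries, so both are descriptions. Genes with exactly 33 values (99 transcripts) had a median TE of 0.359 ± 0.0177 and those with exactly 34 (85 transcripts) 0.369 ± 0.00735.

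**Figure D2:**
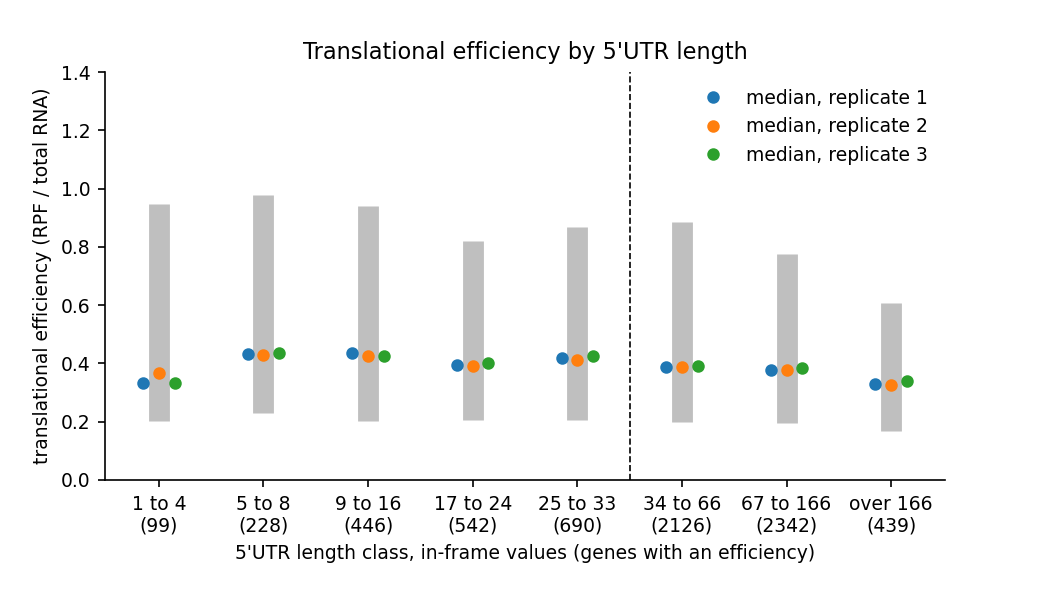
Translational efficiency (linear ratio of RPFs to total RNA) in 8 classes of 5′UTR length, with the median of each replicate as a point and the interquartile range of the genes, by their mean over replicates, as a grey bar; numbers in brackets are genes and the dashed line parts short from longer 5′UTRs. The replicate medians of a class lie close together (0.344 ± 0.0189 at 1 to 4 values, 0.432 ± 0.00323 at 5 to 8), and the grey bars of all classes overlap.

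The highest and lowest TE belonged to mRNAs of very different kinds. RPL7A, a protein of the large ribosomal subunit with 6 values, had a TE of 513, 508 and 570, but 89.4% of its CDS 30-mers occur in other genes and its TE is uncertain. HIST3H2A, a histone H2A gene with 10 values, had 502, 343 and 278. The CDS occupancy per codon was 0.0543 in RPL7A and 0.198 in HIST3H2A, against a median of 0.0440 over short 5′UTRs. By that measure neither was as far above the median as by TE, so the TE of HIST3H2A is uncertain too. RPL37 (30 values), also of the large ribosomal subunit, had 37.95, 43.4 and 41.1, and COX7B (26 values), a subunit of cytochrome c oxidase, had 37.2, 35.9 and 36.3. Their CDS occupancies per codon were 0.297 and 0.139, and 45.3% and 20.1% of their 30-mers were shared. They too were less far above the median by occupancy than by TE, so their TEs are uncertain. EIF5AL1, a near copy of the gene for the factor eIF5A, had 44.01, 46.5 and 45.97, with 100% of its 30-mers shared. At the other end IRAK1, a kinase of interleukin-1 receptor signalling with 23 values, had 0.0116, 0.0130 and 0.0112. GUK1 (14 values), a guanylate kinase, had 0.0125, 0.0168 and 0.0133. NME4, a mitochondrial nucleoside diphosphate kinase with 7 values, had 0.0261, 0.0254 and 0.0238. KIAA0930 had 0.0338, 0.0317 and 0.0304, and DBNL, an actin-binding adaptor, 0.0248, 0.0361 and 0.0359. These 10 were taken as the extremes among the genes that passed the test, so their values are a description.

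Of the shortest 5′UTRs, 5 mRNAs with a single value and the highest TE among such mRNAs are given by rule. MRPL39, of the large mitochondrial ribosomal subunit, had a TE of 1.25, 1.202 and 1.26. EMC7, a subunit of the endoplasmic reticulum membrane complex that inserts proteins, had 1.13, 1.09 and 1.14. RNF103, a ubiquitin ligase, had 0.660, 0.735 and 0.836, NFATC2IP 0.680, 0.617 and 0.665, and SFR1, a partner of recombination factors, 0.456, 0.649 and 0.725. They were taken for a high TE and do not stand for the class of 1 to 4 values. In that class 41 genes (41.4%) lay above the median of all genes and 49 (49.5%) below it. Over all genes the shares were 44.7% and 44.6%. No in-frame 5′UTR read was seen in any of the 5.

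Gene families known for short 5′UTRs made up part of the group. Of 72 cytosolic ribosomal protein genes in the occupancy table, 57 (79.2%) had a short 5′UTR, as did 21 of 22 replication-dependent histone genes. The shares were 46 of 77 (59.7%) for subunits of the respiratory chain and 44 of 71 (62.0%) for mitochondrial ribosomal proteins. They were 12 of 32 (37.5%) for the proteasome, 19 of 48 (39.6%) for genes named as initiation and elongation factors, and 4 of 18 for the Sm and LSm proteins of the spliceosome. Of 339 ZNF genes, which code for zinc finger proteins, 39 (11.5%) had a short 5′UTR, below the 27.8% of all transcripts.

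Of 52 ribosomal protein mRNAs with a short 5′UTR and a TE, 49 lay above the median of all genes and 2 below it, RPL8 and RPS14. Their median TE was 1.82 ± 0.128 (SD, n = 3), against 0.414 for all short 5′UTRs and 1.36 ± 0.0446 for the 15 ribosomal protein mRNAs with a longer one. RPS29 had 30.2, 33.8 and 35.0 and RPS21, which the study names, 1.45, 2.01 and 1.70, while RPL8 had 0.178, 0.184 and 0.201. In 40 of 56 short members of the list more than 50% of the CDS 30-mers were shared with other genes, so their levels are uncertain. All 9 histone mRNAs with a TE lay above the median, from 0.518 in the linker histone HIST1H1T to 375 in HIST3H2A, with a median of 3.19 ± 1.65. Most mRNAs of replication-dependent histones end in a stem-loop and not in a poly(A) tail. The sample labels give rRNA depletion for the total RNA as well, and whether library preparation bears on these TEs was not tested.

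The mitochondrial families lay lower than these. Of 40 respiratory chain mRNAs with a short 5′UTR, 35 lay above and 3 below the median, with a median TE of 1.01 ± 0.0111, against 1.41 ± 0.108 for the 29 with a longer 5′UTR. UQCRB, of complex III, had 15.6, 15.1 and 16.01, and NDUFS7, of complex I, 0.143, 0.148 and 0.149. Of 43 mitochondrial ribosomal protein mRNAs, 30 lay above and 7 below, with a median of 0.845 ± 0.0332, against 1.21 ± 0.0111 for 25 with a longer one. MRPS36 had 12.8, 9.87 and 11.6 and MRPL55 0.0538, 0.0688 and 0.0755. In both families the short members had a lower median than the longer ones in the same libraries, the opposite of the order over all genes, and that difference was not tested.

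Of 12 proteasome mRNAs, 10 lay above and 1 below, with a median of 1.32 ± 0.0432, against 0.706 ± 0.0207 for 18 with a longer 5′UTR. PSMC1, an ATPase subunit of the regulatory particle, had 10.6, 11.1 and 11.2 (99.8% of 30-mers shared), and PSMD8 0.180, 0.171 and 0.173. Of 19 genes named as initiation and elongation factors, 13 lay above and 6 below, with a median of 0.96 ± 0.0212, against 1.07 ± 0.0386 for 27 with a longer 5′UTR. EEF1A1, the elongation factor that delivers aminoacyl-tRNA, had 6.27, 6.82 and 6.13. The lowest was EIF2AK4, which is a kinase of eIF2 and no factor itself, with 0.131, 0.123 and 0.121. This list goes by gene name and also holds other genes that are no factors themselves, such as EIF2AK2, EIF4EBP1 and EIF4EBP3. All 4 Sm and LSm mRNAs lay above the median of all genes, with a median of 1.46 ± 0.123, against 2.40 ± 0.142 for 12 with a longer 5′UTR, and SNRPE stood at 13.9, 15.2 and 15.4 and LSM7 at 0.510, 0.486 and 0.480. Of 17 ZNF mRNAs 5 lay above and 11 below, with a median of 0.263 ± 0.0371, next to 0.263 ± 0.00324 for 178 ZNF mRNAs with a longer 5′UTR. ZNF830 had 1.09, 1.10 and 0.945 and ZNF598, a ubiquitin ligase that senses collided ribosomes, 0.140, 0.142 and 0.142. The counts are set against the 44.7% and 44.6% of all genes above and below, and the lists were tested as no sets.

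**Figure D3:**
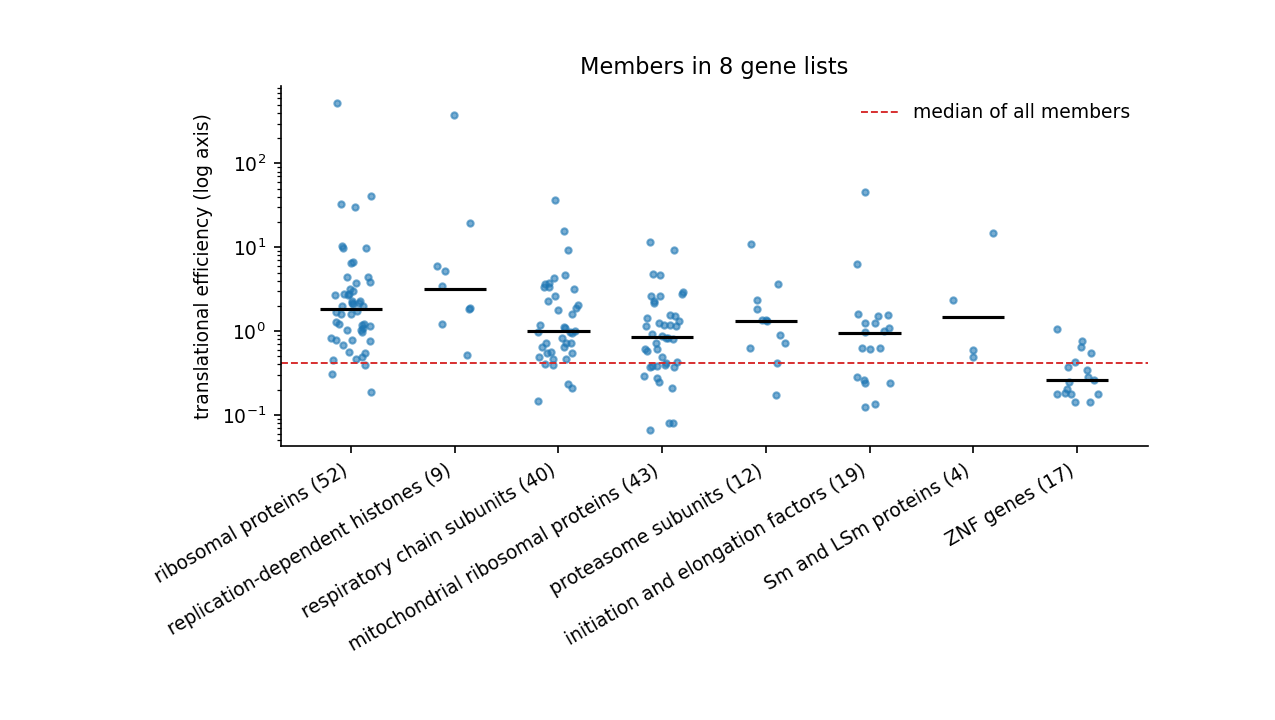
Translational efficiency (log axis, mean of 3 replicates) of each mRNA with a short 5′UTR in 8 gene lists, with the number of genes in brackets, a black bar for the median of the list and a dashed line for the median of all short 5′UTRs, 0.414. The ZNF list alone has its median, 0.263, below the dashed line, and ribosomal proteins range from 0.188 to 530.4.

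mRNAs that open with ATGGCGGC had a higher median TE than the other short 5′UTRs in each replicate. The 175 with a TE had a median of 0.457, 0.465 and 0.488 in the 3 replicates (0.47 ± 0.0163), and the 1580 with another start 0.420, 0.418 and 0.425 (0.421 ± 0.0035). The difference was 0.15 ± 0.0392 on the log2 scale, in the same direction in 3 of 3 replicates (exact sign-flip p = 0.25). Of the 175, 96 lay above and 60 below the median of all genes, next to 44.7% and 44.6% of all genes. The same order was seen in longer 5′UTRs, so it was not particular to short ones. There the median TE was 0.438 ± 0.0106 for 133 with these 8 bases and 0.379 ± 0.00369 for 4420 with another start. The 64 with the whole TISU element had a median of 0.538 ± 0.0134, and the 34 longer 5′UTRs with TISU one of 0.516 ± 0.0323. Among those printed, MRPL50 and MRPS10, of the mitochondrial ribosome, had TEs of 4.96, 4.42 and 4.58 and of 4.84, 4.77 and 4.61. BRIX1, a factor of large ribosomal subunit assembly, had 4.70, 4.67 and 4.66, and PRDX3, a mitochondrial peroxiredoxin, 4.30, 4.11 and 4.04. NDUFS4, of complex I, had only 0.440, 0.433 and 0.529, and DBNL and MRPL55, with the 8 bases but not the element, were among the lowest of all. The same 8 bases were thus found beside TEs well above and well below the median of all genes.

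The occupancy table gives, codon by codon and for in-frame reads only, the authors' RPF counts after scaling to library size, divided by the TPM of the mRNA in total RNA. It combines the replicates, so its values carry no replicate error and no comparison between conditions or replicates can be made with them. Intervals given with it are for the choice of transcripts (95% order-statistic intervals for medians, Wilson for shares) and cover counting error at most. Reads were recovered from the low values, which in 98.8% of transcripts were sums of whole multiples of 3 steps. Short 5′UTRs had a median of 2169 estimated CDS reads and a range from 0 to 1235311, and 1825 of them had at least 1000 and are called deeply covered. CDS occupancy per codon had a median of 0.0440 (0.0424 to 0.0459) in short 5′UTRs. It was 0.0388 (0.0320 to 0.0487) at 1 to 4 values and 0.0462 (0.0437 to 0.0506) at 25 to 33 values, intervals that overlap. In longer 5′UTRs it was 0.0454, with 0.0487, 0.0442 and 0.0370 (0.0340 to 0.0404) by class. Over the 2005 genes it had a Spearman coefficient of 0.68 with TE, with which it shares its libraries.

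In-frame reads were sparse in most short 5′UTRs. Of the 2663, 1291 (48.5%, 46.6 to 50.4) had any in-frame value above 0, against 88.2% (87.4 to 88.9) of the longer ones. The share depends in part on the number of codons that could hold a read, so the share of 5′UTR codons is given beside it. That share mixes positions, and codon −1, next to the start codon, is a larger part of a shorter 5′UTR. With 1 to 8 values, codon −1 held a read in 18.8% of deeply covered transcripts and codon −2 in 5.34%. Of 51379 such codons in short 5′UTRs 8.70% held a read, and 11.3% of 657033 in longer ones. By class it was 9.09%, 6.93%, 7.30%, 7.92% and 9.65% from 1 to 4 up to 25 to 33 values, and 11.3%, 11.6% and 10.6% in the 3 longer classes. The median 5′UTR occupancy per codon was 0 (upper bound 2.41e-05), and its median ratio to the CDS was 0 (upper bound 0.000405), against 0.0464 (0.0437 to 0.0491) in longer 5′UTRs. The median ratio was above 0 from 25 to 33 values on (0.00876, 0.0068 to 0.0115), and was 0.0273 at 34 to 66 and 0.105 over 166 values. In all, 5′UTRs took 0.218% of the in-frame 5′UTR and CDS reads of short members and 1.69% of those of longer ones, shares that depend in part on the length of the 5′UTR. Per 5′UTR codon these were 1.02 and 1.13 reads, which are not scaled to the level of the mRNA. The mean 5′UTR occupancy per codon, which is scaled to it, was 0.00469 in short and 0.00791 in longer 5′UTRs. The short mean rests in part on a few transcripts. By class it was 0.00158, 0.00253, 0.0103, 0.00284 and 0.00364, and the class of 9 to 16 values holds EIF5AL1 (3.09) and AHRR (1.66).

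The share of 5′UTRs with any read differed in the same way at high depth and within bands of CDS length, where it again depends in part on the number of codons. Among deeply covered transcripts 55.3% (53.0 to 57.6) of short 5′UTRs had a read, and 92.9% (92.1 to 93.6) of longer ones. Within the 4 bands of CDS length the shares were 67.1%, 48.8%, 48.9% and 51.1% for short and 95.7%, 92.1%, 91.8% and 92.5% for longer 5′UTRs, from the shortest to the longest CDS. For a single codon near the start codon, the number of codons plays no part in the share. Such a codon still lies nearer to the 5′ end in a shorter 5′UTR, and the effect of this on the shares was not tested. In codon −3, counted back from the start codon, a read was present in 6.58% of deeply covered transcripts with 1 to 8 values, 9.73% with 9 to 16, 18.4% with 17 to 33 and 28.4% with 34 or more. In codon −1 it was present in 18.8%, 22.7%, 28.3% and 36.5%. These shares are over the transcripts of the mean profile described below that have the codon. With 1 to 8 values these were 243 transcripts at codon −3 and 277 at codon −1.

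The 5′UTR reads of short members were few and uneven. Codon −1, next to the start codon, held 34.04% of them, against 4.84% in longer 5′UTRs. Of the 52630 estimated reads, 5 transcripts (HIST1H1C, RPL3, RPSA, HIST1H1E and EIF5AL1, named for this after their values were seen) held 24.9% and the first 100 held 77.7%. The highest 5′UTR occupancy per codon was in EIF5AL1, with 3.09, where codons −4 and −1 had 15.3 and 14.9. AHRR, the repressor of the aryl hydrocarbon receptor, followed with 1.66 over 11 values. It was the only one of the 5 named by this measure with more reads in its 5′UTR (930) than in its CDS (294). Its reads lay at codons −10 to −2, with 5.25 at codon −10, 4.92 at −7 and 4.78 at −5, and its start codon had none (0 of 294 CDS reads, which allows a share of up to 1.02%). In SUMO4, a member of the SUMO family, all 14 reads lay at the first of 7 codons. TPP1, a lysosomal peptidase, had 48 reads, with 3.35 at codon −1, and HOXA4, a homeobox factor, had 9. These are occupancies per unit of mRNA, so a low TPM raises them.

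The start codon was lower in 5′UTRs of up to 24 values than in those with more. In the mean profile of deeply covered transcripts with a CDS over 300 nt, each value being relative to the mean of its CDS and capped at 20, the start codon stood at 1.39 with 1 to 8 values, 1.55 with 9 to 16, 2.02 with 17 to 33 and 2.31 with 34 or more. The peak came from a minority of mRNAs, and the median start codon in short 5′UTRs lay below the CDS mean. Among deeply covered transcripts it was 0.343 (0.280 to 0.389) of the CDS mean in short and 0.515 (0.465 to 0.581) in longer 5′UTRs. By class it was 0.107 (0.00551 to 0.349), 0.279, 0.257 and 0.263 (0.188 to 0.374) up to 17 to 24 values, and 0.584 (0.411 to 0.751) at 25 to 33 values. In the longer classes it was 0.540, 0.506 and 0.455, so it was level from 5 to 24 values and did not rise with length beyond 25 to 33. A read at the start codon was present in 61.1% (50.8 to 70.5) of the class of 1 to 4 values and 75.2% (71.7 to 78.5) of that of 25 to 33, and in 69.2% of short and 71.9% of longer 5′UTRs. The start codon too lies nearer to the 5′ end in a shorter 5′UTR, and the effect of this on its reads was not tested.

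The same classes were lower beyond the start codon. Codons 2 to 15 had medians of 0.194, 0.260, 0.244, 0.305 and 0.424 of the CDS mean from the shortest to the longest short class, and 0.461, 0.400 and 0.412 in the 3 longer classes. For codons 16 to 75 they were 0.786, 0.783, 0.839, 0.874 and 0.961, and 0.984, 0.950 and 0.908 in the longer classes. The class of 25 to 33 values was thus at the level of the longer ones, and the level did not go on rising with length. Of codons 2 to 15, codon 6 was the lowest in every group of the profile, at 0.213 with 1 to 8 values, 0.335 with 9 to 16, 0.449 with 17 to 33 and 0.514 with 34 or more.

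**Figure D4:**
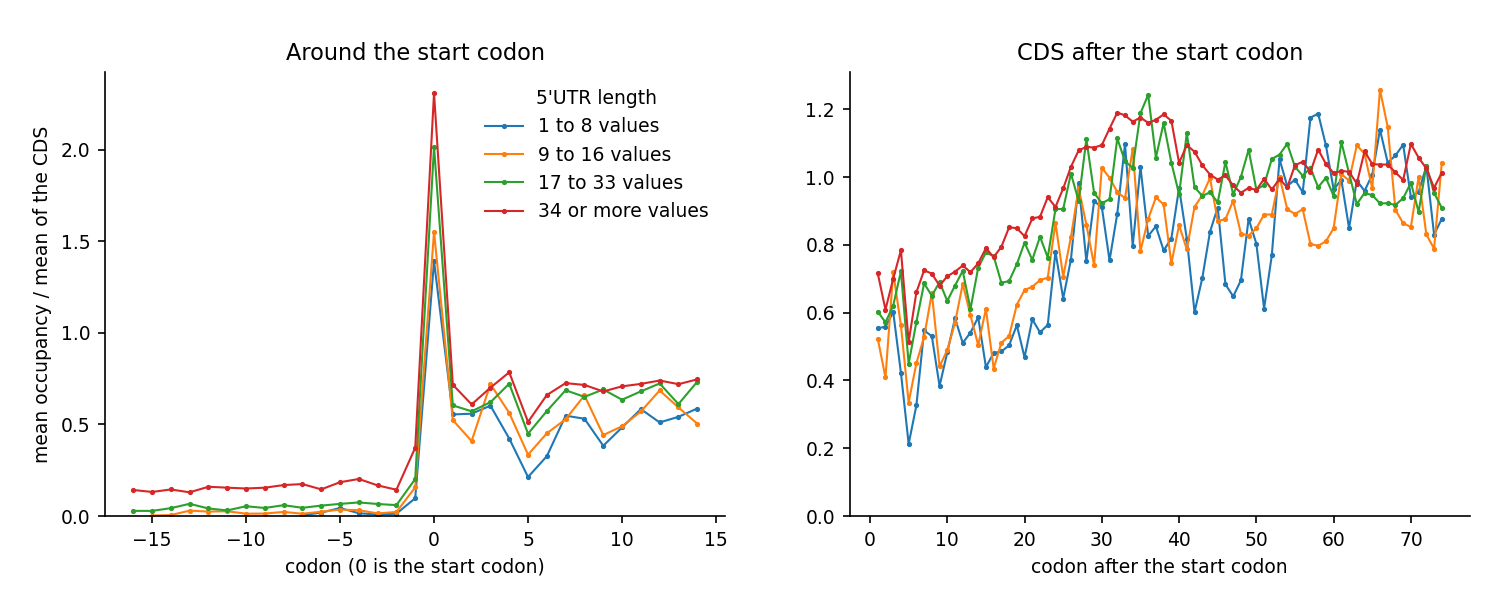
Mean occupancy relative to the mean of the CDS (each value capped at 20) for each codon, from 16 codons before the start codon to 14 after it (left, the start codon is at 0) and over the codons after the start codon (right), in deeply covered transcripts grouped by 5′UTR length. The start codon stands at 1.39, 1.55, 2.02 and 2.31 from the shortest to the longest group, and the 5′UTR and the early CDS lie in nearly the same order.

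The ratio of the first to the last 75 codons of the CDS moves with both ends. The last 75 codons of deeply covered mRNAs had a median of 0.974 of the CDS mean with a short 5′UTR and 0.910 with a longer one, so the end of the CDS was higher in the short group while its start was lower. The median ratio was 0.877 (0.842 to 0.910) over 2570 short 5′UTRs with a CDS over 300 nt, and 1.02 (0.995 to 1.04) over 6739 longer ones. By class it was 0.638 (0.536 to 0.859), 0.803 (0.717 to 0.865), 0.833 (0.746 to 0.906), 0.857 (0.783 to 0.919) and 0.990 (0.925 to 1.06), and then 1.04, 1.01 and 0.922 in the longer classes. The intervals of the 4 shortest classes lay below that of 34 to 66 values (1.01 to 1.08). Among deeply covered mRNAs the short group was lower in each band of CDS length, with 0.855, 0.824, 0.780 and 1.03 against 0.965, 0.965, 1.03 and 1.14 for longer 5′UTRs. In the band of longest CDS the intervals overlapped (0.917 to 1.13 and 1.08 to 1.18).

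**Figure D5:**
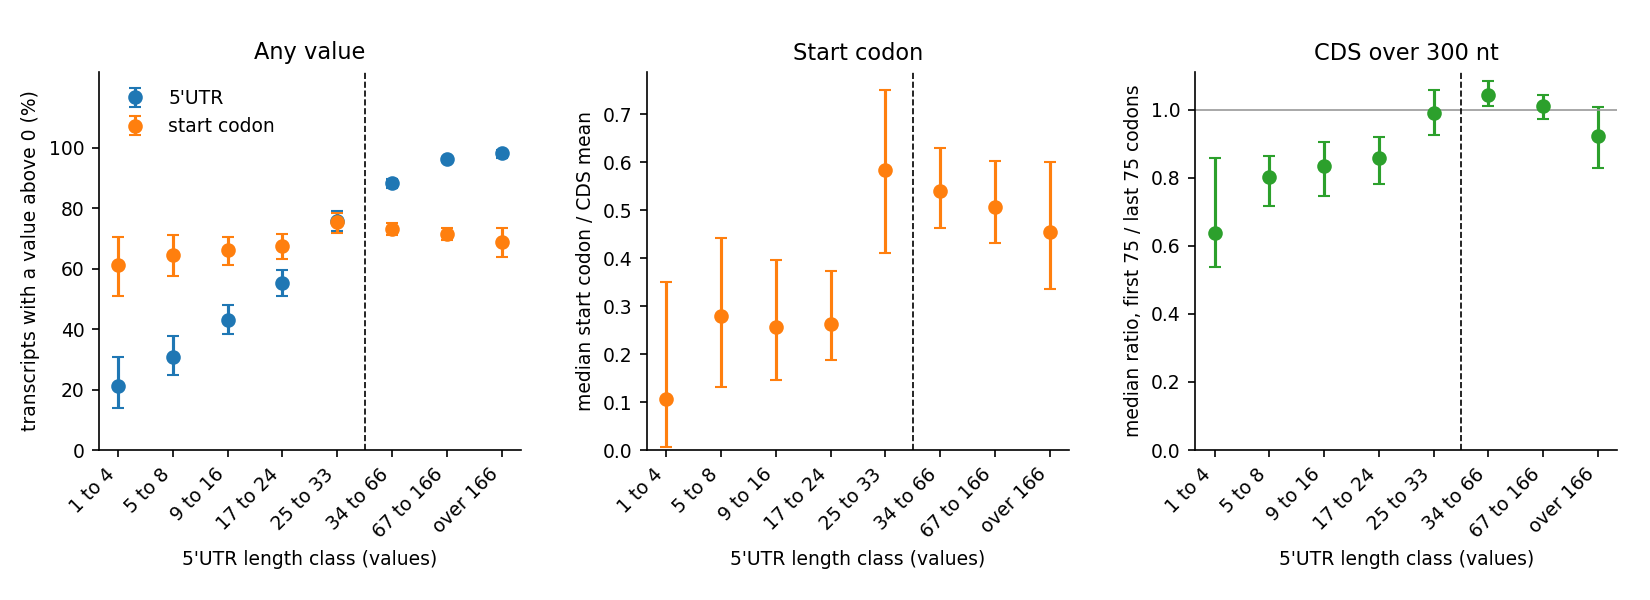
Deeply covered transcripts with a value above 0 in the 5′UTR or at the start codon (left, %), median start codon occupancy relative to the CDS mean in the same transcripts (centre) and median ratio of the first to the last 75 codons over all CDS longer than 300 nt (right), in 8 classes of 5′UTR length; bars are 95% intervals over transcripts and the dashed line parts short from longer 5′UTRs. At 25 to 33 values the centre and right panels (0.584 and 0.990) lie at the level of the longer classes, and the share with a 5′UTR value on the left depends in part on the number of codons.

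The start codons named here were taken by their level relative to the CDS mean. TPP1 had 427 of its 2363 CDS reads there, 101.9 times its CDS mean, with no TE in the table. CWF19L1 followed with 83.4 times (708 of 4576 reads), XPC, which recognises DNA damage, with 63.7 times (172 of 2534), PDCD7, a minor spliceosome protein, with 61.2 times (163 of 1295) and LIMD1, a LIM domain protein of miRNA silencing, with 57.2 times (194 of 2299). Their TEs were ordinary. CWF19L1 had 0.413, 0.360 and 0.407, XPC 0.254, 0.188 and 0.322, PDCD7 0.348, 0.398 and 0.345, and LIMD1 0.416, 0.429 and 0.406, and of these XPC alone passed the test, below the median (adjusted p = 0.0122, limma). None of the 4 start sites, which are printed above, holds the 8 bases ATGGCGGC. Only 8.74% of short 5′UTRs have these bases, so their absence from 4 sites says little.

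At the other end, RPL36A had 0 start codon reads of 97616 in its CDS, which allows a share of up to 0.00307%, and a TE of 3.14, 3.06 and 3.30. The readthrough transcript RPL36A-HNRNPH2, which shares its 5′ part, was at 0 too and is no second case. RPS9 had 0 of 50409 and RPS15A 0 of 47887, with a TE of 2.71, 2.72 and 2.92 for RPS15A. CHD4, a chromatin remodeller, had 0 of 48619 (up to 0.00617%) with 79 reads in its 5′UTR and a TE of 0.0769, 0.0880 and 0.101. In all of these more than 50% of the CDS 30-mers, where measured, were shared with other genes. In genes without shared sequence LIN7C, a polarity scaffold, had 0 of 9392 (up to 0.0319%) and a TE of 2.74, 2.88 and 2.85. EMC7 had 0 of 5346 (up to 0.0561%), but with 1 value its start codon lies near the 5′ end of the mRNA. At low TE, IRAK1, also without shared sequence, had 0 of 1810 (up to 0.166%). PSMD8, with 12.7% of its 30-mers shared, had 0 of 13828 (up to 0.0217%) and a TE of 0.180, 0.171 and 0.173. A start codon without reads was thus found beside high and low TEs.

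The 8-base start went with few reads at the start codon at any length. Among deeply covered short 5′UTRs that open with ATGGCGGC, 104 of 173 had a start codon read (60.1%, 52.7 to 67.1), against 1016 of 1418 with another start (71.7%, 69.2 to 73.9). Their medians were 0.0956 (0.0435 to 0.169) and 0.431 (0.362 to 0.523) of the CDS mean. With 1 to 16 values the medians were 0.101 (0.0211 to 0.275) and 0.371 (0.249 to 0.521), with intervals that overlap, and with 17 to 33 values 0.0695 (0 to 0.185) and 0.464 (0.373 to 0.586). Longer 5′UTRs showed the same order, with 0.0877 (0 to 0.165) and 0.566 (0.503 to 0.622).

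ARPC2, a subunit of the actin nucleating Arp2/3 complex, had 21 values, an annotated 5′UTR of 74 nt that matches them, and a TE of 0.547, 0.550 and 0.551 (adjusted p = 0.000247, limma), above the median in 3 of 3 replicates. Of its 19723 CDS reads 43 lay at the start codon, 0.652 of the CDS mean, and 1 read lay in its 5′UTR. RPS21 had 26 values, 20 reads in its 5′UTR and 1033 of 44130 CDS reads at the start codon, 1.97 times the CDS mean.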

How the data were processed

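Per the labels, 3 RPF and 3 total RNA libraries of HEK293 cells were made. The submitters' processing notes name cutadapt 1.16, Bowtie 1.1.2, TopHat2 2.1.1 and HTSeq 0.9.1 and the build hg19. The authors removed PCR duplicates with unique molecular identifiers and used 1 transcript per gene, the most abundant one. The deposited TE is a ratio (RPF over total RNA, linear) of 8121 genes in 3 replicates, whose formula the sources used do not give. The deposited occupancy values (another unit: normalized RPF counts divided by TPM) combine the replicates. Lists of 31 transcripts, 7 of them short, were broken over lines and were rejoined. The codon at the break was set to missing unless the break fell cleanly between values.

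The limma package (3.58.1, R 4.3.3) was applied to log2(TE + 0.01), each gene against the median of all genes, with no filter and Benjamini-Hochberg adjustment over all genes; fold changes on this scale understate low genes. The low occupancy values were matched to whole multiples of 3 steps at a tolerance of 1e-07, up to 30 times the smallest step, and higher values were divided by the mean worth of a read, so read numbers are estimates. Limits for 0 reads take 3 counts and cover counting error only. RPF and total RNA of 1 number come from 1 lysate, so the pairing is inside the ratio. Nothing says that the 3 replicates came from separate cultures, so p-values measure the spread between these samples. Sequences come from GENCODE 44 on GRCh37, matched by symbol or RefSeq accession and CDS length, and shared sequence is the percentage of CDS 30-mers found in another gene's transcripts. The scripts ran in Python 3.11.15 (scipy 1.17.1, pandas 2.3.3, numpy 2.4.6).

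The members, the gene lists and the tests were chosen with earlier results of these data known. Named genes are the 5 highest and 5 lowest in TE among those called, the 5 highest in 5′UTR occupancy and the 5 highest and lowest at the start codon with at least 100 CDS reads, the 5 with the fewest values, the extremes of each list, and RPS21 and ARPC2 from a fixed list of mRNAs. Genes whose start sites are printed, and further list members, were picked as examples after their values were seen. Alternatives covered the pseudocount, a filter on low values, replicates left out, CDS and 5′UTR length, and codons next to the start codon.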

Additional observations from a re-analysis of the deposited data

Results flagged for a closer look

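In-frame reads in the 3′UTR were outside the comparisons above. In short 5′UTR transcripts they came to an estimated 70526 reads over 1243088 codons, 0.293% of the CDS reads, above the limit of 3 counts. They were present in 1544 of the 2663 transcripts (58.0%), next to 56.8% of the longer ones, where they made up 0.388% of the CDS reads. Per 3′UTR codon there were 0.0567 reads in short and 0.0425 in longer 5′UTR transcripts, the opposite order. These reads per codon are not scaled to the level of the mRNA. The median estimated mRNA level, relative to that of all transcripts, was 1.26 in short and 0.919 in longer 5′UTR transcripts. The 3′UTR values combine the replicates and were not tested.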

How the results depend on the processing

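The number of short 5′UTR genes above the median TE was 923 to 935 when 1 replicate was left out and 954 to 966 under the other alternatives, and the number below it 797 to 820 and 824 to 844, against 963 and 844. A fit with the replicate number as a block gave 963 and 844 again, and the difference of 0.136 in median log2 TE with the block, since each replicate was compared within itself. That difference was 0.135 to 0.137 when 1 replicate was left out, and 0.0337 to 0.268 under the other alternatives, with no change of sign; 3 replicates cannot pass 0.05 in the exact test. The share of short 5′UTRs with a value was 35.6% without the 5 codons next to the AUG (5′UTRs over 5 values) and 55.3% with at least 1000 CDS reads. That depth also moved the median 5′UTR occupancy to 0.000179 and the median start codon, 0.193 over all short 5′UTRs, to 0.343. The start codon median was 0.0816 at 1 to 16 values, 0.261 over codons 1 to 3 and 0 over 455 transcripts with an isoform of matching 5′UTR length. Median CDS occupancy was 0.0399 over CDS with under 5% shared 30-mers. The other 38 of 46 alternative values stayed within the bounds set for them. The alternatives on depth, matching isoforms and shared sequence were added after the data had been seen. Occupancy has no replicates, read numbers in high values are estimates, and start codon and 5′UTR values of mRNAs with few reads are limited by depth.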
